A study of Mus musculus with 8 samples.

Results

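The killer lectin-like receptors are C-type lectin proteins of NK cells and cytotoxic T cells. RNA of 7 of their genes, *Klrk1*, *Klrd1*, *Klrc1*, *Klrc2*, *Klrg1*, *Klre1* and *Klrb1c*, is described here out of 48321 gene symbols counted. The 7 genes were selected on their measured CPM, counts scaled to the size of each library, at both days in both genotypes, so their levels and differences are given as a description without a test. RNA sequencing was done on 8 libraries of peripheral CD8+ T cells from spleens of C57BL/6 mice, with 2 libraries in each of 4 groups, namely WT at day 0, KO at day 0, WT at day 5 and KO at day 5. The series names floxed *Satb1* alleles and the *E8I-cre* transgene, in which an enhancer of *Cd8a* drives the recombinase in mature CD8 lineage cells, for the cultured cells, which its title calls stimulated in vitro. The labels give the groups as WT or KO only. The alleles and the cre status of the WT mice, the age of the mice, the agents used in culture and whether the libraries of a group came from separate animals are not given in the labels, so p-values measure only the spread between these libraries, which may be technical.

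NKG2D, the product of *Klrk1*, is an activating receptor for stress-induced ligands related to MHC class I and signals through the adaptor DAP10, encoded by *Hcst*. CD94, the product of *Klrd1*, reaches the surface as a pair with NKG2A, the inhibitory product of *Klrc1*, or with NKG2C, the activating product of *Klrc2*, and both pairs bind the class I-like molecule Qa-1, encoded by *H2-T23*. In mouse CD8+ T cells NKG2D is known to appear on activation. KLRG1 is an inhibitory receptor for cadherins found on effector T cells, KLRE1 pairs with the KLRI receptors, and *Klrb1c* encodes the NK cell antigen NK1.1.

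All 7 genes lie on chromosome 6 (GRCm38, GENCODE M21). *Klre1* (129577905 to 129585827, plus strand), *Klrd1* (129591782 to 129598775, plus), *Klrk1* (129610323 to 129623864, minus), *Klrc2* (129647496 to 129660689, minus) and *Klrc1* (129666015 to 129678973, minus) follow each other within 101 kb. *Klrb1c* (128778485 to 128789215, minus) opens a stretch of 900.5 kb that ends with *Klrc1*, and *Klrg1* (122270596 to 122282882, minus) lies 6.50 Mb outside it. The sequences before the annotated starts of *Klrk1* and *Klrc1* are shown because these genes had the highest day 5 levels among the receptors that were low at day 0. They are the 250 bases upstream of the RefSeq start sites on GRCm38.p6, at chr6:129623865-129624114 and chr6:129678974-129679223, read on the minus strand from 5′ to 3′. Capitals mark the RUNX hexamer TGTGGT or its reverse complement.
Klrk1: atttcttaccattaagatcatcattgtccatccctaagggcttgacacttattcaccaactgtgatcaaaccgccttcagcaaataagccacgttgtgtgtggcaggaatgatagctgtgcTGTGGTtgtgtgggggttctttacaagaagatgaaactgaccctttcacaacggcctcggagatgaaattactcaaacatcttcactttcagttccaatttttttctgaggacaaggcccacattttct
Klrc1: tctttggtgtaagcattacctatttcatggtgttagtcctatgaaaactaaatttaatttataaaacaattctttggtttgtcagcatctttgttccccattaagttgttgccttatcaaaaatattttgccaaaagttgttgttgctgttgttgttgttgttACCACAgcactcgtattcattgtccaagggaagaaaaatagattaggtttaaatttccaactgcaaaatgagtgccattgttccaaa

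The RUNX hexamer began at position -129 from the start site of *Klrk1* and at -87 from that of *Klrc1*. Entries of the RefSeq table matched 5 of the 7 receptor genes. *Klrd1* and *Klrg1* are named only. The hexamer stood upstream of each of the 5, with 2 matches before *Klrc2* and with a match at 1 of the 2 listed start sites of *Klre1*. Of all 27025 promoters of the table, 14.2% held it. No match was found before the 5 genes for the T-box letters AGGTGT (12.0% of all promoters), the AP-1 letters TGANTCA (6.87%) or the STAT letters TTCNNNGAA (7.18%), each searched on both strands. These 4 motifs were chosen after the sequences had been seen. A match describes letters and not binding.

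The libraries held 4170126 to 11117971 counts assigned to genes, 21.2% to 24.5% of their records, and 34404 symbols had a count in any library. *Satb1*, the targeted gene, stood at 97.8 and 91.6 CPM in WT and at 144.1 and 124.8 CPM in the KO-labelled libraries at day 0, so its level did not follow the label there. The counts cover the whole gene, and which exons the recombinase removes is not given in the labels. The difference of 0.51 on the log2 scale (SE 0.15) did not pass the quasi-likelihood test of edgeR, adjusted by Benjamini-Hochberg (FDR 0.125, 0.0675 to 0.458 over the alternatives). At day 5 *Satb1* was at 96.5 and 115.9 CPM in WT and at 56.5 and 62.3 CPM in the KO-labelled libraries, a fall of 0.84 (SE 0.15, edgeR FDR 0.0162, 0.000378 to 0.174 over the alternatives) that lost its call without WT replicate 2 (FDR 0.0848), KO replicate 1 (FDR 0.174) or KO replicate 2 (FDR 0.156). Markers of CD8+ T cells other than *Runx3*, at 42.7 to 64.6 CPM, were high in every library. Those of other cells ranged from 0 to high levels. *Cd8a* was at 734 to 1455 CPM and *Cd3e* at 568 to 1083 CPM in every library, whereas *Cd4* did not exceed 0.964 CPM, *Lyz2* 3.39 CPM and *Zbtb16* 1.10 CPM. The 7 markers of CD8 T cells summed to 12418 to 13084 CPM in WT and 12183 to 12532 CPM in the KO-labelled libraries at day 0, and to 8014 to 8086 and 8998 to 9060 CPM at day 5. Among NK cell markers *Ncr1* was at 0 to 0.715 CPM and at 0 in 4 of 8 libraries, while the list of 18 summed to 3174 to 6025 CPM, most of it from *Nkg7* at 1939.7 to 4157 CPM, a granule gene that CD8+ T cells also express. The 7 markers of NKT and innate-like T cells summed to 840 to 1353 CPM, with *Cxcr6* at 343 to 773 CPM and *Slamf6* at 124 to 776 CPM, and 6 B cell markers to 68.1 to 167 CPM, mainly from *Cd79b* at 66.7 to 164 CPM.

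Of the 7 receptor genes, *Klrd1* held most of the reads at day 0, *Klrk1* and *Klrd1* did at day 5 and *Klrc1* was counted almost entirely at day 5, while *Klrc2*, *Klre1*, *Klrb1c* and *Klrg1* stayed at or below 3.35 CPM in all 8 libraries. In bulk RNA, fewer cells carrying a receptor and less RNA per cell cannot be told apart. The filter on low counts was passed by 4 genes, *Klrk1*, *Klrd1*, *Klrc1* and *Klre1*, and not by *Klrc2*, *Klrg1* and *Klrb1c*.

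**Figure D1:**
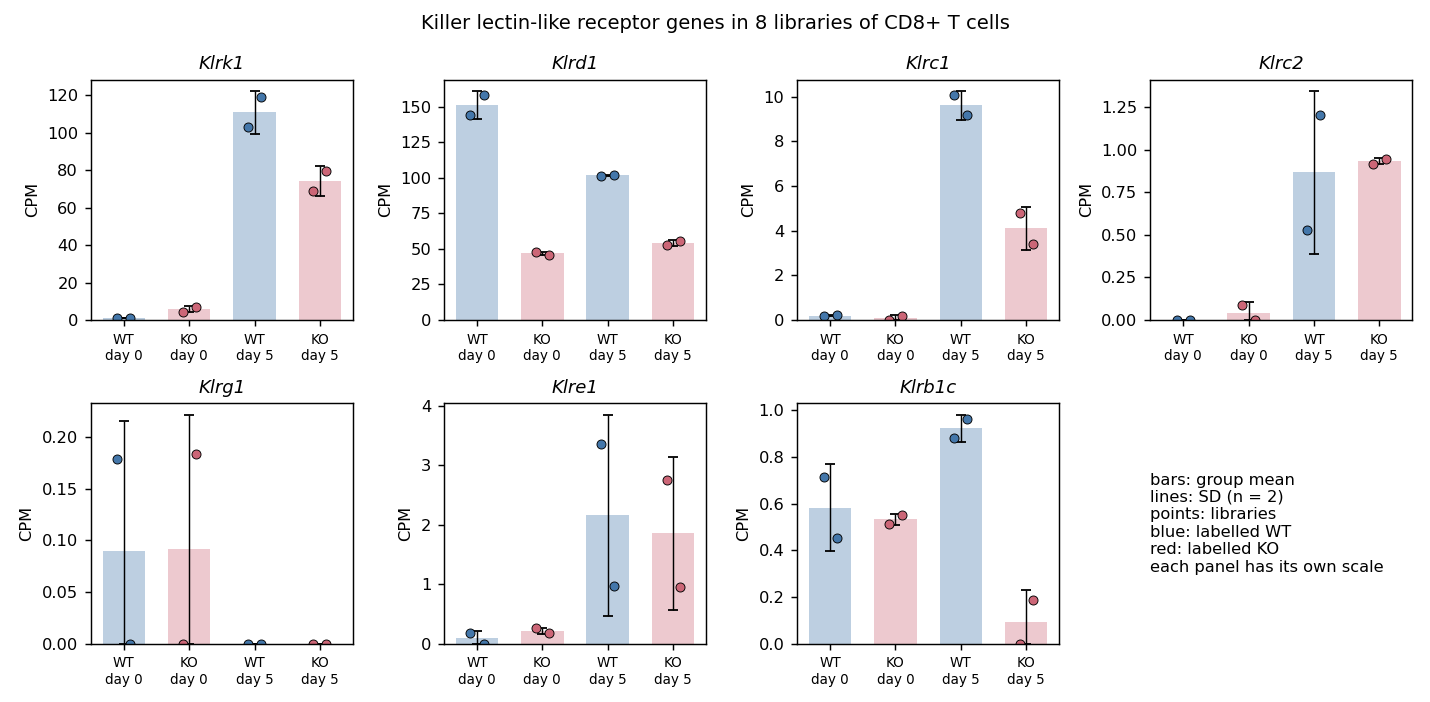
Level of each of the 7 receptor genes, in CPM on the TMM-scaled library size (vertical axis, a separate scale in each panel), in the groups labelled WT and KO at day 0 and day 5 (horizontal axis). Points are libraries, bars are group means and lines are SD (n = 2). The mean of *Klrk1* is 0.899 CPM at day 0 and 111 CPM at day 5 in WT, while *Klrd1* was lower in the KO-labelled libraries at both days.

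*Klrk1* was close to the limit of counting in WT cells before culture, at 0.894 and 0.904 CPM (5 and 4 counts). In the KO-labelled libraries it was at 4.55 and 6.79 CPM (53 and 37 counts) at the same day. The KO-labelled libraries lay above both WT libraries with no overlap, and the fitted difference was 2.57 on the log2 scale (SE 0.39), 5.94-fold. At day 5 *Klrk1* was at 102.8 and 118.8 CPM in WT and at 68.6 and 79.7 CPM in the KO-labelled libraries. The order of the genotypes was thus the opposite of that at day 0, again with no overlap, by -0.58 on the log2 scale (SE 0.18), 1.49-fold lower in the KO-labelled libraries.

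Between day 0 and day 5 *Klrk1* differed by 6.91 on the log2 scale in WT (SE 0.30), from a mean of 0.899 ± 0.0071 to 111 ± 11.3 CPM (SD, n = 2). In the KO-labelled libraries the difference was 3.76 (SE 0.22), from 5.67 ± 1.59 to 74.2 ± 7.85 CPM. Both comparisons share their libraries with the comparisons of genotypes, so the 4 differences are not independent of each other. The summed level of 9 gamma delta T cell markers moved in the same direction as *Klrk1* at day 0, at 63.0 to 95.6 CPM in WT and 161 to 164 CPM in the KO-labelled libraries, and was at 322 to 348 and 516 to 614 CPM at day 5. Of that list 6 genes reached 10 counts in a library, and the defining marker *Trdc*, the delta chain constant gene, overlapped between genotypes at day 0, at 53.3 and 81.9 CPM in WT and 80.9 and 77.3 CPM in the KO-labelled libraries. At day 5 *Trdc* was lower than at day 0, unlike the sum, and overlapped again, at 27.3 and 45.3 CPM in WT and 29.4 and 21.4 CPM in the KO-labelled libraries. Without *Trdc* the other 8 markers summed to 9.66 to 13.8 CPM in WT and 79.8 to 86.6 CPM in the KO-labelled libraries at day 0, and to 277 to 320.3 and 486 to 592 CPM at day 5. Most of this sum came from the gamma chain constant genes *Tcrg-C1*, *Tcrg-C2* and *Tcrg-C4*. *Tcrg-C1* was at 1.79 and 1.81 CPM in WT and 5.06 and 7.34 CPM in the KO-labelled libraries at day 0, and its profile over the 8 libraries was the closest to that of *Klrk1* among the genes tested. Among 6 B cell markers, 2 of which reached 10 counts, the sum was at 122 to 124 CPM in WT and 143 to 167 CPM in the KO-labelled libraries at day 0, and at 68.1 to 69.6 and 81.1 to 84.6 CPM at day 5. Among 3 CD4 T cell markers, 2 of which reached 10 counts, it was at 1.36 to 3.58 and 6.06 to 6.26 CPM at day 0 and at 2.65 to 3.17 and 3.13 to 3.22 CPM at day 5. Both sums were thus higher in the KO-labelled libraries at day 0, as *Klrk1* was. The B cell sum was also higher there at day 5, where *Klrk1* was lower. Of the genes that reached 10 counts, *Cd79b* and *Cd40lg* had higher means in the KO-labelled libraries at day 0, 153 against 120 and 4.76 against 1.37 CPM. *Cd79a* and *Zbtb7b* had lower means there, 1.22 against 1.67 and 0.642 against 0.984 CPM. The part of these 3 marker lists in the *Klrk1* values was not tested.

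*Klrd1*, the CD94 chain, had more reads than the other 6 together at day 0. At day 0 it was at 144.2 and 158.1 CPM in WT (806 and 699 counts) and at 47.7 and 46.1 CPM in the KO-labelled libraries (556 and 251 counts). The genotypes did not overlap, and the difference was -1.69 on the log2 scale (SE 0.14), 3.22-fold lower in the KO-labelled libraries. At day 5 *Klrd1* was at 101.4 and 102.2 CPM in WT and at 52.6 and 55.7 CPM in the KO-labelled libraries. Both KO-labelled libraries were again below both WT libraries, by -0.91 (SE 0.14), 1.88-fold lower.

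The genotype gap in *Klrd1* was smaller at day 5 than at day 0. In WT its level went from 151 ± 9.82 to 102 ± 0.536 CPM (SD, n = 2), a difference of -0.57 (SE 0.13). In the KO-labelled libraries it went from 46.9 ± 1.16 to 54.1 ± 2.16 CPM, a difference of 0.21 (SE 0.14) with no overlap between the days. With library totals as the only scaling the days overlapped in the KO-labelled libraries, and the difference was 0.023. That scaling moved the median of all tested genes by -0.18 in the KO-labelled libraries and by -0.14 in WT. The summed level of 18 NK cell markers, 9 of which reached 10 counts in a library, overlapped between genotypes at day 0, at 3423 to 3535 CPM in WT and 3174 to 3463 CPM in the KO-labelled libraries. At day 5 that sum was at 4304 to 5206 CPM in WT and 5585 to 6025 CPM in the KO-labelled libraries, so it was higher where *Klrk1* and *Klrd1* were lower, and its part in their values was not tested.

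*Klrc1*, the NKG2A chain, had 1 and 1 counts in WT and 0 and 1 counts in the KO-labelled libraries at day 0. At day 5 it was at 10.1 and 9.16 CPM in WT (57 and 38 counts) and at 4.78 and 3.41 CPM in the KO-labelled libraries (26 and 18 counts). The day 5 groups did not overlap, and the level was lower in the KO-labelled libraries by a log2 difference of -1.23 (SE 0.43). As a ratio of summed counts per scaled library size, day 5 was 48.4 times day 0 in WT (95% counting interval 13.0 to 406) and 70.2 times in the KO-labelled libraries (12.0 to 2836). The width of these intervals comes from the 2 counts in WT and the 1 count in the KO-labelled libraries at day 0. The fitted day difference in the KO-labelled libraries was 5.67 on the log2 scale (SE 0.79), and it was 4.32 without replicate 1 and 7.64 without replicate 2 of day 0.

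*Klrc2*, the NKG2C chain, had 0 and 0 counts in WT at day 0 and 1 and 0 counts in the KO-labelled libraries. At day 5 it had 3 and 5 counts in WT and 5 and 5 counts in the KO-labelled libraries, 0.529 to 1.20 CPM. Day 5 lay above day 0 in both genotypes, at least 2.72-fold in WT against a floor of 3 counts over the group and 16.0 times in the KO-labelled libraries (interval 2.27 to 693). The bound in WT leaves out the counting error of its 8 counts at day 5, whose exact lower limit of 0.352 CPM lies below the upper limit of 0.368 CPM that 0 counts give at day 0. The genotypes overlapped at day 5, with a ratio of 1.15 for KO-labelled libraries over WT (interval 0.407 to 3.34), which this depth cannot separate from a difference in either direction. Values of the *Klrc* genes are uncertain because they resemble each other. Of the 50-base windows in transcripts of *Klrc1*, 38.6% also occur in *Klrc2* or *Klrc3*, and 16.3% of those of *Klrc2* occur in *Klrc1* or *Klrc3*. No such window was shared by *Klrk1*, *Klrd1* or *Klrg1*.

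The remaining receptors were counted in few reads. *Klre1* had 1 and 0 counts in WT and 3 and 1 counts in the KO-labelled libraries at day 0, against 19 and 4 in WT and 15 and 5 in the KO-labelled libraries at day 5. Its day 5 level was above day 0 in both genotypes, by a ratio of 23.5 in WT (interval 3.81 to 966) and 7.98 in the KO-labelled libraries (2.67 to 32.1), and replicate 1 was over 2 times replicate 2 in both day 5 groups. The fitted day difference in WT was 4.24 on the log2 scale (SE 1.21), and it was 6.76 or 3.51 without replicate 1 or 2 of day 0 and 3.06 or 4.85 without replicate 1 or 2 of day 5. The corresponding value was 2.90 (SE 0.95) in the KO-labelled libraries, and 1.96 without replicate 1 of day 5. The day 5 genotypes overlapped, at 3.35 and 0.964 CPM in WT and 2.76 and 0.947 CPM in the KO-labelled libraries.

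*Klrb1c*, which encodes NK1.1, had 4 and 2 counts in WT and 6 and 3 in the KO-labelled libraries at day 0, and 5 and 4 counts in WT against 0 and 1 in the KO-labelled libraries at day 5. At day 5 WT was 9.82 times the KO-labelled libraries (interval 1.36 to 431), and the groups did not overlap, whereas at day 0 they did. Its few counts are uncertain, since 14.0% of its exons overlap the same-strand gene *Gm44511* and 17.0% of its 50-base windows also occur in *Gm44511*, *Klrb1-ps1*, *Klrb1a* or *Klrb1b*. *Klrg1* had 1 count in WT replicate 1 and 1 count in KO replicate 2 at day 0 and 0 in the 4 libraries of day 5, in all 2 counts of 47645347. At day 5 the exact upper limit for 0 counts was 0.376 CPM in WT and 0.344 CPM in the KO-labelled libraries. Expression of *Klrg1* was thus not detectable at this depth. All intervals and floors cover counting error only.

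**Figure D2:**
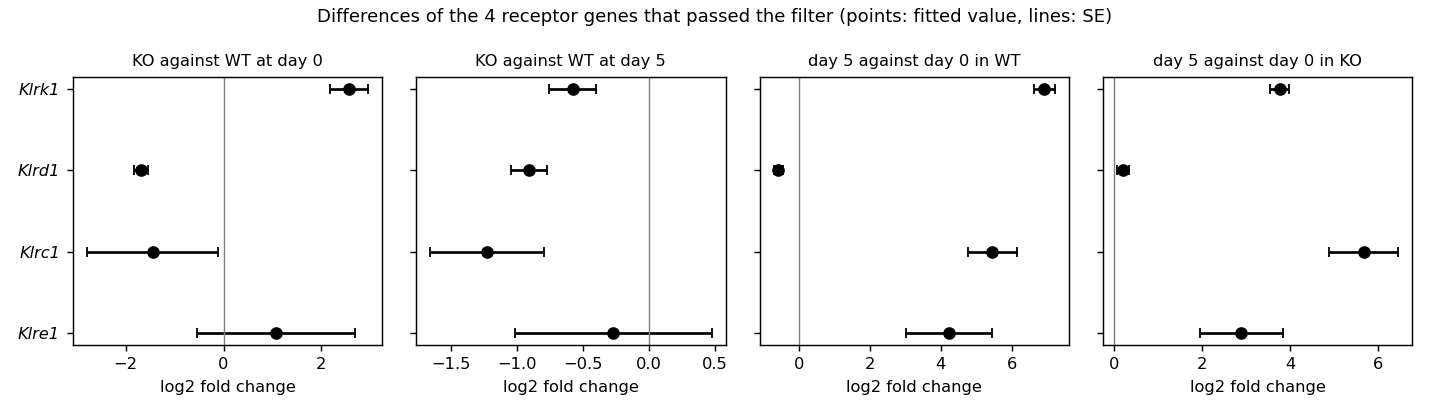
Fitted log2 fold changes (horizontal axes, a separate scale in each panel) of the 4 receptor genes that passed the filter in 4 comparisons of groups labelled WT and KO. Points are fitted values and lines are SE. *Klrk1* lies at 2.57 at day 0 and at -0.58 at day 5 for KO against WT, while *Klrd1* lies below 0 at both days.

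Counted by groups without overlap, 3 of the 7 receptors were apart between genotypes at day 0, beside 25.6% of all genes with a count. *Klrk1* and *Klre1* were higher and *Klrd1* lower in the KO-labelled libraries. For *Klre1* this rests on 1 count in WT replicate 1 (0.179 CPM) and 1 count in KO replicate 2 (0.184 CPM). Its ratio for KO-labelled libraries over WT was 2.34 (counting interval 0.232 to 115). At day 5 the genotypes were apart in 4 of 7 receptors, beside 22.4% of all genes. These were *Klrk1*, *Klrd1*, *Klrc1* and *Klrb1c*, all lower in the KO-labelled libraries. Between days it was 6 of 7 in WT, 5 higher at day 5 and *Klrd1* lower, beside 39.6% of all genes. In the KO-labelled libraries it was also 6 of 7, 5 higher at day 5 and *Klrb1c* lower, beside 42.1% of all genes. With library totals as the only scaling it was 5 of 7 there. The *Klrb1c* ratios of day 5 over day 0 had counting intervals that spanned 1. They were 0.486 to 5.22 in WT and 0.00405 to 1.28 in the KO-labelled libraries. Nothing is read from these counts, since the values chose the genes. Leaving out KO replicate 2 or WT replicate 1 of day 0 gave 5 of 7 at day 0. Leaving out a library can only keep or raise this number. The share of all genes was not computed for that setting, so 5 of 7 cannot be set beside 25.6%.

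Within a library, the balance of the receptors does not depend on scaling. Reads of *Klrk1* per 100 reads of *Klrd1* were 0.620 and 0.572 in WT and 9.53 and 14.7 in the KO-labelled libraries at day 0, and 101 and 116 in WT and 130.4 and 143 in the KO-labelled libraries at day 5. The KO-labelled libraries were thus above WT at both days in this ratio, although *Klrk1* itself was below WT at day 5. Summed reads of *Klrc1*, *Klrc2* and *Klrc3* per 100 reads of *Klrd1* were 10.6 and 10.4 in WT and 10.8 and 8.50 in the KO-labelled libraries at day 5, so the genotypes overlapped in this ratio although *Klrc1* and *Klrd1* were each lower in the KO-labelled libraries. At day 0 the same ratio was 0.124 and 0.143 in WT and 0.719 and 0.398 in the KO-labelled libraries, from 1 to 4 reads a library.

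**Figure D3:**
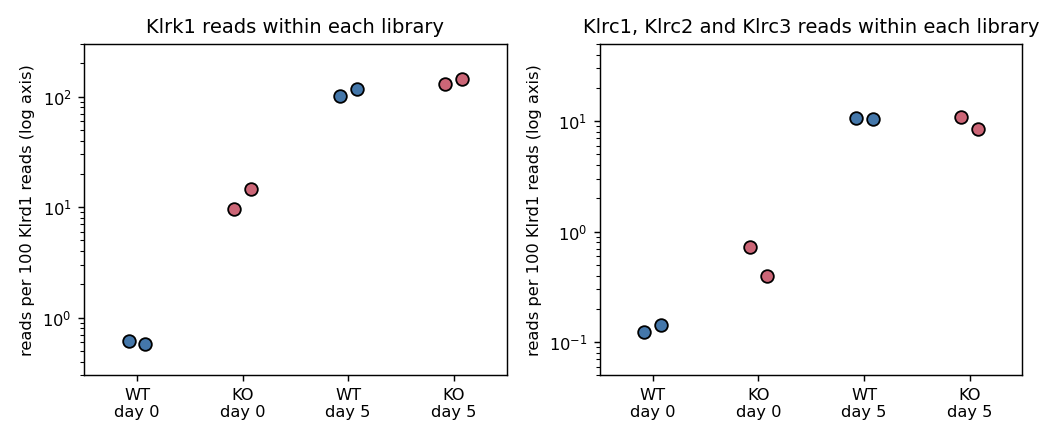
Reads of *Klrk1* (left) and summed reads of *Klrc1*, *Klrc2* and *Klrc3* (right) per 100 reads of *Klrd1* in each library, on log axes, by group as labelled. Each point is 1 library. The *Klrk1* ratio climbs from 0.572 at its lowest to 143 at its highest, and the *Klrc* ratios of day 5 overlap between genotypes at 8.50 to 10.8.

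Levels of different receptors were compared per kilobase of all annotated exons. In WT at day 0 *Klrd1* was at 118 ± 7.66 CPM per kb (SD, n = 2), and the other 6 were at or below 0.197 CPM per kb, from too few counts to be put in order. In WT at day 5 the order was *Klrd1* at 79.5 ± 0.419, *Klrk1* at 15.4 ± 1.57, *Klrc1* at 4.84 ± 0.319 and *Klre1* at 0.617 ± 0.483 CPM per kb, followed by *Klrb1c* at 0.312, *Klrc2* at 0.149 and *Klrg1* at 0. The first 3 were separated by more than their spread, and *Klre1* and *Klrb1c* were not. In the KO-labelled libraries at day 5 the first 3 kept this order at 42.3 ± 1.69, 10.3 ± 1.09 and 2.06 ± 0.490 CPM per kb. The choice of length changes these values for *Klrk1*, whose annotated exons span 7183 bases against 3197 for its longest coding transcript. On the latter length it was at 34.7 CPM per kb in WT at day 5, still below *Klrd1* at 110.8 CPM per kb.

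Other genes of the family had low counts, with 1 exception. Of 20 further family genes listed, 19 were in the tables and 1 was tested. It was *Klrb1f*, an NKR-P1 family gene, at 0.650 ± 0.599 CPM in WT and 0.539 ± 0.276 CPM in the KO-labelled libraries at day 0 and at 11.3 ± 3.06 and 14.1 ± 0.108 CPM at day 5 (SD, n = 2). It rose by 3.98 on the log2 scale in WT (SE 0.52, edgeR FDR 4.84e-05, 1.81e-12 to 0.00096 over the alternatives) and by 4.82 in the KO-labelled libraries (SE 0.50, edgeR FDR 5.99e-06, 1.07e-19 to 0.000138). Without replicate 1 or 2 of day 0 the difference was 5.52 or 3.37 in WT, and without KO replicate 1 of day 0 it was 4.23 in the KO-labelled libraries. It did not pass the test between genotypes at day 0 (-0.51, SE 0.76, edgeR FDR 0.845) or day 5 (0.32, SE 0.36, edgeR FDR 0.749). The 18 untested genes held 89 counts in all, at most 5 in a library, and 2 were at 0 throughout. They include the 11 Ly49 genes of the *Klra* group.

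*Hcst*, the DAP10 adaptor of NKG2D, moved opposite to *Klrk1* over time. It was at 174.8 and 160.1 CPM in WT and 150.6 and 152.7 CPM in the KO-labelled libraries at day 0, and at 84.1 and 92.1 CPM in WT and 80.9 and 80.1 CPM in the KO-labelled libraries at day 5. The days did not overlap, and *Hcst* fell by 0.93 on the log2 scale in WT (SE 0.13, edgeR FDR 7.24e-05, 1.22e-07 to 0.00214 over the alternatives) and by 0.91 in the KO-labelled libraries (SE 0.13, edgeR FDR 7.58e-05, 1.67e-07 to 0.00258). The genotypes differed by -0.14 (SE 0.12, edgeR FDR 0.698) at day 0 and by -0.13 (SE 0.13, edgeR FDR 0.726) at day 5, neither past the test. Per kilobase of exons *Hcst* was at 232 and *Klrk1* at 0.125 CPM per kb in WT at day 0, and at 122 and 15.4 CPM per kb at day 5. *Tyrobp*, which encodes the adaptor DAP12, had 1 to 4 counts in every library and was not tested.

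Of 78 listed family genes, adaptors, ligands and regulators outside the 7, 41 were tested. Between genotypes 2 of them were called at day 0, where 1.8% of all 12597 tested genes were, and 1 at day 5, where 1.63% were. Between days 28 were called in WT and 27 in the KO-labelled libraries, beside 48.3% and 50.2% of all tested genes. No listed gene was called by edgeR in the genotype by day interaction, beside 0.159% of all tested genes. There DESeq2 called 1, *Id3*, and the unadjusted edgeR p was under 0.05 for 1 adaptor, 2 ligands and 2 regulators.

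The 13 tested adaptor and signalling genes were not called between genotypes by edgeR. The unadjusted p was under 0.05 for 3 at day 0 and 4 at day 5, and DESeq2 called 0 and 2 (*Pik3r1* and *Inpp5d*, named after their values were seen). Their median log2 differences were -0.11 at day 0 and 0.28 at day 5, beside -0.0017 and 0 over all tested genes. Over time 1 rose and 7 fell in WT, with a median of -0.39, and 1 rose and 4 fell in the KO-labelled libraries, with a median of -0.18, beside -0.039 and -0.046 over all genes.

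Of 19 listed ligand genes, 15 were in the tables and 5 were tested. None of the 5 was called between genotypes by edgeR or DESeq2, with an unadjusted edgeR p under 0.05 for 1 at day 0 and 2 at day 5, and their medians were -0.22 and -0.12. Over time 1 rose in WT, where the median was 0.30, and 2 rose and 2 fell in the KO-labelled libraries, where the median was -0.040, beside 48.3% and 50.2% called and medians of -0.039 and -0.046 over all tested genes. *H2-T23*, which encodes the Qa-1 ligand of CD94 pairs, was at 56.6 ± 1.11 CPM in WT and 53.4 ± 6.80 CPM in the KO-labelled libraries at day 0 and at 48.5 ± 9.76 and 35.7 ± 2.30 CPM at day 5 (SD, n = 2). In the KO-labelled libraries it fell by 0.59 over time (SE 0.18, edgeR FDR 0.0169, 0.00519 to 0.13 over the alternatives). The call was lost without KO replicate 1 of day 0 (FDR 0.13) and without KO replicate 1 (FDR 0.0644) or replicate 2 (FDR 0.126) of day 5. It was also lost with each library thinned to the smallest total (FDR 0.0641). In WT the difference was -0.23 (SE 0.18, edgeR FDR 0.323).

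Of the 22 tested regulators, which are transcription factors and cytokine receptors known to act on these receptors, 2 were higher in the KO-labelled libraries at day 0 and 1 at day 5, with medians of 0.13 and 0.12. *Il2rb*, the beta chain shared by the IL-2 and IL-15 receptors, was called at both days. It was at 94.8 and 102.9 CPM in WT and 227.8 and 194.2 CPM in the KO-labelled libraries at day 0, and at 313.6 and 269.2 CPM in WT and 490.9 and 527.9 CPM in the KO-labelled libraries at day 5. Both KO-labelled libraries were above both WT libraries at each day, by 1.10 at day 0 (SE 0.14, edgeR FDR 0.00116, 1.65e-10 to 0.0589 over the alternatives) and 0.81 at day 5 (SE 0.13, edgeR FDR 0.00989, 5.32e-06 to 0.156). The day 0 call was lost without WT replicate 1 (FDR 0.0589), and the day 5 call without WT replicate 2 (FDR 0.0586), KO replicate 1 (FDR 0.0642) or KO replicate 2 (FDR 0.156). *Klrk1*, in contrast, was above WT at day 0 and below it at day 5, and *Klrd1* was below WT at both days.

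*Id3*, an inhibitor of E-protein transcription factors, was at 138.1 and 122.6 CPM in WT and at 196.9 and 205.7 CPM in the KO-labelled libraries at day 0. The difference of 0.63 (SE 0.13, edgeR FDR 0.0318, 0.00535 to 0.299 over the alternatives) lost its call without WT replicate 1 (FDR 0.174) or 2 (FDR 0.299), without KO replicate 1 (FDR 0.0779) or 2 (FDR 0.0902) of day 0, and without KO replicate 1 (FDR 0.0776) or 2 (FDR 0.0784) of day 5. At day 5 *Id3* was at 76.4 and 67.0 CPM in WT and 64.6 and 62.7 CPM in the KO-labelled libraries, and the difference of -0.17 (SE 0.14, edgeR FDR 0.644) did not pass. Over time 10 regulators rose and 8 fell in WT, with a median of 0.38, and 9 rose and 8 fell in the KO-labelled libraries, with a median of 0.29. Over all tested genes 48.3% and 50.2% were called, with medians of -0.039 and -0.046.

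**Figure D4:**
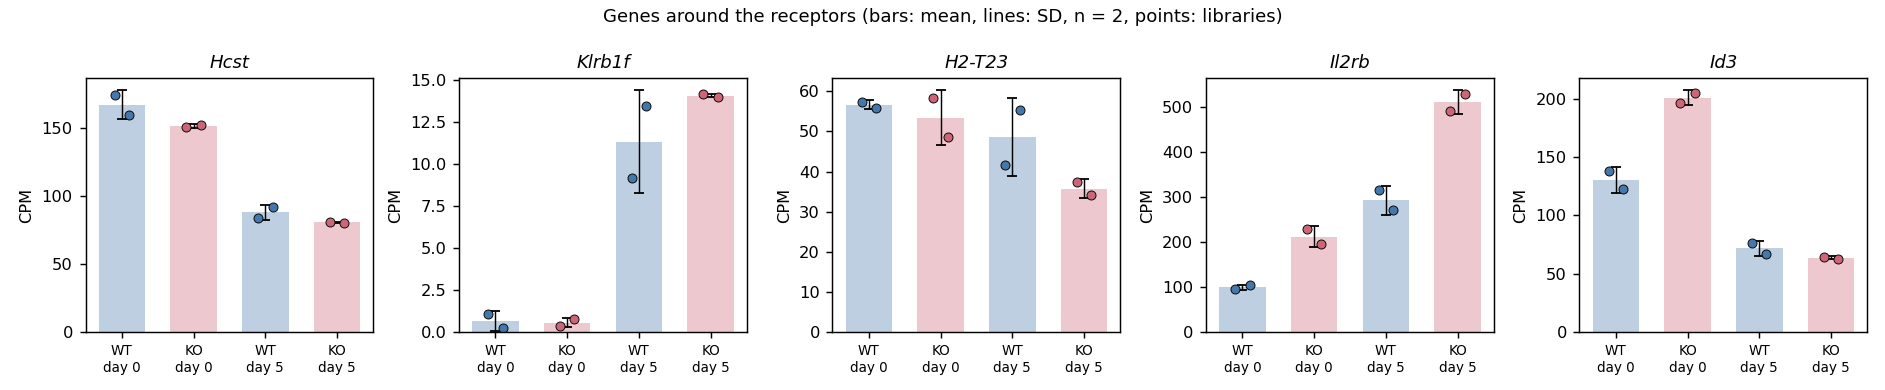
Levels in CPM (vertical axis, a separate scale in each panel) of the adaptor *Hcst*, the receptor gene *Klrb1f*, the ligand gene *H2-T23* and the regulators *Il2rb* and *Id3* in the 4 groups as labelled. Points are libraries, bars are means and lines are SD (n = 2). *Hcst* is lower at day 5 in both genotypes, and *Il2rb* is higher in the KO-labelled libraries at both days.

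Between the outer ends of *Klrb1c* and *Klrc1* the annotation places 51 genes, 50 of them in the tables, and 13 were tested, 4 receptors of the set and 9 others. None of the 9 neighbours was called between genotypes by edgeR at either day or by DESeq2, with an unadjusted edgeR p under 0.05 for 2 at day 0 and 1 at day 5. Over time 5 of the 9 rose and 0 fell in WT, where 48.3% of all tested genes were called, and 5 rose and 2 fell in the KO-labelled libraries, where 50.2% were. The 5 that rose, named after their values were seen, were *BC035044*, *BC064078*, *Klrb1f*, *1700101I11Rik* and *Gabarapl1*, the last an autophagy gene, and the 2 that fell by edgeR were *Clec2i* (FDR 0.0474) and *Cd69* (FDR 0.0352). DESeq2 called the same 5 that rose in each genotype and neither of the 2 that fell. *Gabarapl1*, the nearest to *Klre1* of the 9 neighbours, rose by 3.94 on the log2 scale in WT (SE 0.18, edgeR FDR 3.39e-09) and by 3.48 in the KO-labelled libraries (SE 0.17, edgeR FDR 4.5e-09). *Klrd1*, between *Klre1* and *Klrk1*, was the only 1 of the 4 receptors past the filter that was lower at day 5 than at day 0 in WT.

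**Figure D5:**
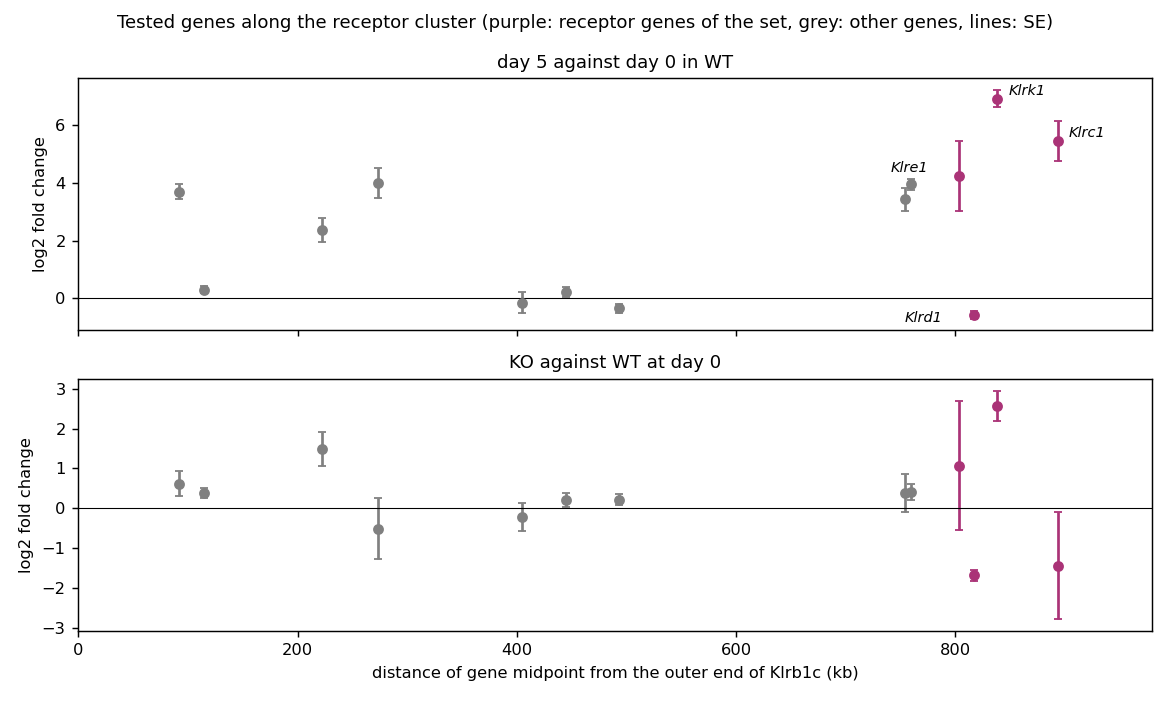
Fitted log2 fold change (vertical axes) of the 13 tested genes along the receptor cluster against distance from the outer end of *Klrb1c* in kb (horizontal axis), for day 5 against day 0 in WT (top) and for KO-labelled libraries against WT at day 0 (bottom). Points are genes and lines are SE, with the 4 receptors in purple and the 9 other genes in grey. *Klrd1* lies at -0.57 in the upper panel between *Klre1* at 4.24 and *Klrk1* at 6.91.

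Profiles over the 8 libraries were compared by the root mean square difference of centred log2 CPM. Closest to *Klrk1* were *Tcrg-C1* at 0.41, *Ccrl2* at 0.49 and *Ctla4* at 0.55, where the median over all genes was 2.71. Closest to *Klrd1* were *Adrm1* at 0.26, *Parl* at 0.31 and *Kif7* at 0.31, with a median of 0.83. *Klrc1* was closest to *Fcmr* at 0.31, *Nov* at 0.34 and *Ankrd37* at 0.36, with a median of 2.01. *Klre1* was closest to *Slc7a5* at 0.33, *Gm16350* at 0.36 and *Fdx1l* at 0.37, with a median of 1.27. None of these 12 genes is another killer lectin-like receptor.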

How the data were processed

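For every library the authors deposited a table of unnormalized counts of reads by gene symbol, without pooling. The submitters' processing notes name HISAT2 2.1.0, HTSeq 0.11.1 and mm10. Neither the gene annotation nor the strandedness used in counting is given in the sources used here, so reads of overlapping genes on opposite strands may not be told apart. The 5 summary lines of each table, among them reads aligned to more than 1 place, were left out of library sizes. The 7 receptor genes and all gene lists were chosen with earlier results of these data known.

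All 8 libraries entered 1 edgeR 4.0.16 quasi-likelihood fit in R 4.3.3 with a mean per group, TMM factors and a minimum count of 10, which left 12597 genes. Two-sided p-values were adjusted by the Benjamini-Hochberg method over these genes, and FDR under 0.05 was called. The common biological coefficient of variation was 15.0%. CPM used TMM-scaled library sizes. Counting intervals were 95% exact ones. The edgeR fit was tested on simulated counts for KO against WT at day 5, with changes only in genes with more counts. The other steps were not tested in this way.

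Named were the 7 receptors, family genes with at least 10 counts in a library, *Hcst*, *Tyrobp*, *H2-T23*, listed genes called between genotypes or in the interaction, and for each list of adaptors, ligands and regulators the 3 genes called over time with the largest change among those with at least 10 CPM. Alternatives were other scalings, filters and tests including DESeq2 1.42.0, only the libraries compared, a replicate block, thinned depth and leaving out each library. GENCODE M21 gave positions and exon lengths. The summed markers of NKT and innate-like T cells were at 1175 to 1327 CPM in WT and 1222 to 1353 CPM in the KO-labelled libraries at day 0 and at 921 to 1234 and 840 to 952 CPM at day 5, those of myeloid cells at 10.9 to 19.4, 10.7 to 15.0, 4.41 to 4.58 and 5.15 to 6.06 CPM in the same order. A further marker gene is not reported here and was left out of the sums.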

Additional observations from a re-analysis of the deposited data

Results flagged for a closer look

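*Klrk1* is listed because both KO-labelled libraries were above both WT libraries at day 0 and below both at day 5. The log2 difference between genotypes at day 5 minus that at day 0 was -3.15 (SE 0.43). The gene was chosen for its values in these groups, and the difference was not tested.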

How the results depend on the processing

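With 2 libraries a group, calls between genotypes were few and moved most. Without the filter on low counts 4 listed genes were called at day 0 instead of 2, 3 at day 5 instead of 1, and 1 in the interaction instead of 0. DESeq2 called 3 at day 5 and 1 in the interaction. Leaving out a library of day 0 gave 4 to 5 receptors with groups apart at day 0 instead of 3. That number uses no fit and can only stay or rise when a library is left out. Calls of listed genes between genotypes were also lost when a library was left out, so that fewer libraries entered the fit. The cause of the changed counts of calls was not tested otherwise. Over time the counts stayed at 25 to 29 in WT and 23 to 29 in the KO-labelled libraries. The replicate numbers are shared by the groups, but their deviations correlated by only 0.0044 and -0.017 between genotypes within a day and by 0.12 and 0.23 between days, so they were not taken as pairs. With the replicate block the counts of calls were 2, 1, 28, 26 and 0 in the 5 comparisons.

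The *Klrk1* difference at day 0 ranged from 2.16 to 2.88, and *Klrd1* from -1.78 to -1.62 at day 0 and from -0.95 to -0.82 at day 5. Of 302 alternative values of 20 receptor differences, 5 had another sign. They belong to *Klrc1*, whose interaction of 0.22 became -1.12 without KO replicate 1 of day 0, -0.041 without KO replicate 1 of day 5 and -0.64 with libraries thinned to 4170126 counts, an alternative chosen after seeing the data, and to *Klre1*, whose day 5 genotype difference of -0.27 became 0.94 without WT replicate 1 and 0.31 without KO replicate 2. Of 28 called differences of other named genes, 22 kept their call under all alternatives and 0 reversed.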

Other observations

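The 3 regulators with the largest changes over 5 days of culture rose in both genotypes, each called by the quasi-likelihood test of edgeR with adjustment by Benjamini-Hochberg. *Il2ra*, the inducible alpha chain of the IL-2 receptor, went from 2.48 ± 0.974 to 1945 ± 264 CPM in WT and from 5.52 ± 2.62 to 1804 ± 251 CPM in the KO-labelled libraries (SD, n = 2), log2 differences of 9.65 (SE 0.31) and 8.24 (SE 0.27), the latter 8.94 without KO replicate 1 of day 0. *Nfil3*, a transcription factor required for NK cell development, had 0 and 4 counts in WT and 3 and 2 counts in the KO-labelled libraries at day 0 and rose by 8.14 (SE 0.47) and 8.96 (SE 0.44). Without replicate 1 or 2 of WT at day 0 its difference in WT was 7.02 or 12.5, so its size rests on few counts. *Il12rb2*, a chain of the IL-12 receptor, rose by 7.05 (SE 0.27) and 7.36 (SE 0.26), the latter 8.22 without KO replicate 1 of day 0. Reads of *Il12rb2* may include those of *Serbp1*, whose exons on the other strand overlap it by 40.0%.

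*Plcg2*, a phospholipase behind activating receptors, rose by 2.52 (SE 0.45) in WT and 3.36 (SE 0.44) in the KO-labelled libraries, where it was 2.64 or 4.11 without replicate 1 or 2 of day 0, while *Cd247*, the CD3 zeta chain, fell by 0.90 (SE 0.12) and 0.67 (SE 0.12). Of the exons of *Cd247*, 56.4% overlap exons on the other strand and 3.87% exons on the same strand. The overlapping genes are *Gm16565* and *Pou2f1*, so reads of *Cd247* may include theirs. Among ligand genes *Ulbp1*, a ligand of NKG2D, went from 3.94 ± 0.508 to 22.9 ± 2.05 CPM in WT and from 2.68 ± 0.629 to 26.4 ± 2.76 CPM in the KO-labelled libraries (SD, n = 2), log2 differences of 2.55 (SE 0.28) and 3.35 (SE 0.27) past the same test, and *Klrk1* was also higher at day 5 than at day 0 in both genotypes. *Cdh1*, E-cadherin and a ligand of KLRG1, rose by 3.27 (SE 0.58, edgeR FDR 0.000498, 1.39e-10 to 0.00592 over the alternatives) in the KO-labelled libraries, where it was 2.27 or 4.67 without replicate 1 or 2 of day 0, and differed by 0.76 (SE 0.59, edgeR FDR 0.314) in WT, without passing. The difference between these changes was 2.50 (SE 0.85, edgeR FDR 0.267) and did not pass.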
